A study of Mus musculus with 12 samples.

Results

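The 10 genes described here mark neural progenitors and early neurons: Pax6, Sox1, Sox21, Sox11, Msi1, Nes, Hes5, Zic1, Ncam1 and Elavl3. They were chosen by function, with earlier results of these data known, and all 10 were among the 19938 genes tested, each with a single probe set. Expression had been measured on Affymetrix arrays in a clone of D3, a mouse embryonic stem (ES) cell line, with 3 biological replicates, per the labels, in each of 4 groups. The ATRA group was embryoid bodies (EBs) that had been exposed for 12 h to 5 micromolar all-trans retinoic acid. The DMSO group was EBs given the solvent for 12 h, the EB group was untreated EBs at day 4, and the ES group was undifferentiated cells at day 0. EBs are aggregates formed in bacteriological dishes without the cytokine LIF, so all 3 EB groups lacked LIF. The labels leave unsettled whether the 12 h fell within the 4 days or came after them. All groups come from 1 clone, and an EB is a mixture of cell types, so a lower value in it can mean fewer cells of a type or less RNA per cell, which cannot be told apart here.

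Early in neural induction, cells of the epiblast switch on Sox1, a transcription factor of the SoxB1 group. They then become dividing progenitors that Notch signalling, acting through Hes genes, keeps from differentiating. Cells that leave the cycle take up SoxC factors and neuronal RNA-binding proteins of the Elavl family. Retinoic acid, made next to the neural tube in the embryo, promotes neuronal differentiation and gives the hindbrain and spinal cord their position along the body, and it is widely used on EBs to obtain neural cells.

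The sequence before the start of transcription is shown for members that differed between ATRA and DMSO, where an entry existed, and for the Notch target Hes5, from RefSeq promoters of build GRCm38.p6. Of the 10 members, 8 had an entry, Pax6 with 2 starts; Msi1 and Ncam1 had none. Each sequence gives the 250 bases before the start, 5′ to 3′ on the strand of the gene. Capitals mark 4 motifs searched on both strands: ACAAAG or ACAAT as cores of SOX sites, TGGGAA as the core bound by the Notch effector RBPJ, and TATAAA as the TATA box. None of these motifs overlapped another in the windows shown.
Pax6, first start, chr2:105668646-105668895, plus strand: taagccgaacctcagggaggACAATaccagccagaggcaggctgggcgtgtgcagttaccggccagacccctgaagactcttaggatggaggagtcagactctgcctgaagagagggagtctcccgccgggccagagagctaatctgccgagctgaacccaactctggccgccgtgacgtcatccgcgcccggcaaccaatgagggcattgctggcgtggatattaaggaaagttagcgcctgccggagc
Pax6, second start, chr2:105682213-105682462, plus strand: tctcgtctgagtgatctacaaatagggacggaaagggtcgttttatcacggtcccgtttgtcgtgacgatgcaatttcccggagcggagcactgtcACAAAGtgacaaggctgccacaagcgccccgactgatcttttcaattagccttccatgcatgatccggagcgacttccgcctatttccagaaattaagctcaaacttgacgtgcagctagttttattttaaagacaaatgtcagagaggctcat
Elavl3, chr9:22052024-22052273, minus strand: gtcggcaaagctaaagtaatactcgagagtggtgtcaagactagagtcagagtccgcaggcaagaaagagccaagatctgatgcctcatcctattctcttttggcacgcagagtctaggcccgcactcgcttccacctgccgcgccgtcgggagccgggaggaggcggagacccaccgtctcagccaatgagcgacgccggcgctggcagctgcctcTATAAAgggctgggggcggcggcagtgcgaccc
Sox21, chr14:118237031-118237280, minus strand: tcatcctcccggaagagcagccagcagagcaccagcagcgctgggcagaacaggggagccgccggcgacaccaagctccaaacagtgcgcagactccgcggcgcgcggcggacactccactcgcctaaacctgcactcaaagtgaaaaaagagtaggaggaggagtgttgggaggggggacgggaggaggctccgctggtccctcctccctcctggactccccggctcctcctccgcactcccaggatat
Sox11, chr12:27342719-27342968, minus strand: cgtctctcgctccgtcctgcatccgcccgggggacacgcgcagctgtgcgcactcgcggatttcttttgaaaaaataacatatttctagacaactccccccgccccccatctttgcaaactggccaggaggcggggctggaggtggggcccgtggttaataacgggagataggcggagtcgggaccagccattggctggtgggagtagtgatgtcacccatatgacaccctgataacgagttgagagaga
Hes5, chr4:154960673-154960922, plus strand: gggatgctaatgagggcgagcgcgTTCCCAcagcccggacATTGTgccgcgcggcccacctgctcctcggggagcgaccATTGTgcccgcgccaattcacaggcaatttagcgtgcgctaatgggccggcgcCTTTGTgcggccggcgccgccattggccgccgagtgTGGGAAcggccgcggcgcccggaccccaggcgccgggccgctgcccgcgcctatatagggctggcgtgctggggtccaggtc

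The first Pax6 window holds ACAAT 230 bases before the start and the second holds ACAAAG 154 bases before it. Among all 32851 promoter windows of this length, 27.7% hold ACAAT and 16.5% hold ACAAAG. Elavl3 has TATAAA 33 bases before its start, a motif found in 12.4% of all windows. This TATAAA and the whole Hes5 window lie inside the spans that RefSeq gives these genes, chr9:22015005-22052146 and chr4:154960626-154962372. The Hes5 window holds TGGGAA on the minus strand 226 and on the plus strand 82 bases before the start, besides ACAAT at 210 and 171 and ACAAAG at 118, all 3 on the minus strand; 21.6% of all windows hold TGGGAA. The Sox21 and Sox11 windows hold none of these motifs. AGGTCA, the half-site of retinoic acid receptors, was searched too and found in 0 of the 9 windows of the members, against 14.0% of all windows, and its direct repeat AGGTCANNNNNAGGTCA in 0.00913% of all windows. Such matches describe these letters only. The windows of the members held 15 to 32 CpG dinucleotides and 47.6% to 71.6% G and C, against medians of 6 and 52.4% over all promoter windows.

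Levels and differences below are on the log2 scale of the deposited values, and a difference is the first group minus the second, ± SE from a limma fit to all genes, with n = 3 arrays a group. A gene is called where its p, adjusted over all 19938 genes, is under 0.05. The array medians lay between 7.76 and 7.86, replicate arrays correlated at 0.992 to 0.997, and the interquartile range, 3.55 to 3.65 in most arrays, was 3.50 in ES replicate 2 and EB replicate 2. The retinoic acid targets Cyp26a1, Dhrs3, Stra8, Rarb and Hoxb1 were higher in all 5 cases with ATRA than with DMSO. Of 8 markers of pluripotent cells, Pou5f1 averaged 13.39 with ATRA, 13.38 with DMSO, 13.38 in EBs and 13.33 in ES cells, while Zfp42 (-0.565), Fgf4 (-0.492) and Sox2 (-0.205) were called lower with ATRA than with DMSO. The files give no detection call, so whether a low value lies above background was not known, and levels of different genes were not compared.

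ATRA against DMSO isolates the response to ATRA from that to the solvent. The neural genes split into 3 that rose, 3 that fell and 4 that did not pass the test. Pax6, Msi1 and Elavl3 rose by 1.44- to 1.62-fold, while Sox11, Sox21 and Ncam1 fell by 1.31- to 1.57-fold. Sox1, Nes, Hes5 and Zic1 were not called. Over all genes, 13.3% were called in this comparison, 6.26% higher and 7.05% lower, and the median size of a difference was 0.087, against 0.43 over the 10 members. For 7 of the members the ATRA and DMSO arrays did not overlap, against 39.6% of all genes.

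Pax6 encodes a paired-box transcription factor of the ventral neural tube, the forebrain and the eye. Its values were 8.11, 8.06 and 8.30 with ATRA, against 7.49, 7.34 and 7.55 with DMSO, 7.30, 7.66 and 7.37 in EBs, and 7.71, 7.80 and 7.72 in ES cells. All 3 ATRA arrays lay above the 9 others, and the ES arrays lay above those of the other EB groups. Pax6 rose by 0.70 ± 0.09 with ATRA against DMSO (adjusted p = 2.84e-04) and by 0.71 ± 0.09 against EBs, which share the ATRA arrays with it (adjusted p = 2.23e-04). It also stood 0.41 ± 0.09 above ES cells (adjusted p = 0.00402), a comparison in which 36.6% of all genes were called. DMSO-treated and untreated EBs, the lowest groups, differed by 0.01, with a 95% interval from -0.19 to 0.22.

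Msi1 encodes Musashi, an RNA-binding protein of neural stem cells that holds back translation of the Notch inhibitor Numb. It read 11.13, 11.07 and 11.11 with ATRA, against 10.57, 10.53 and 10.63 with DMSO, 10.40, 10.32 and 10.46 in EBs, and 10.26, 10.22 and 10.26 in ES cells. The 4 groups stood in a staircase in which none overlapped its neighbour. Msi1 rose by 0.53 ± 0.05 with ATRA against DMSO (adjusted p = 1.17e-05), and stood 0.86 ± 0.05 above ES cells (adjusted p = 3.16e-08), the widest range of group means among the members after those of Sox21 and Sox11. The step of 0.18 ± 0.05 between DMSO and untreated EBs did not pass the test (adjusted p = 0.101).

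Elavl3, or HuC, encodes an RNA-binding protein that appears as neurons leave the cell cycle. It stood at 9.20, 9.20 and 9.16 with ATRA, against 8.65, 8.59 and 8.67 with DMSO, 8.62, 8.54 and 8.66 in EBs, and 8.87, 8.85 and 8.86 in ES cells. As for Pax6, the ATRA arrays were the highest, the ES arrays came next, and the other EB groups overlapped at the bottom. Elavl3 rose by 0.55 ± 0.04 against DMSO (adjusted p = 5.12e-06) and was 0.33 ± 0.04 above ES cells (adjusted p = 8.77e-05).

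Sox21 belongs to the SoxB2 group, repressors that oppose SoxB1 factors and promote neuronal differentiation. Its values were 9.57, 9.54 and 9.50 with ATRA, against 10.004, 10.007 and 10.013 with DMSO, 9.85, 9.90 and 9.997 in EBs, and 8.90, 8.76 and 8.96 in ES cells. The ATRA arrays lay below those of the other EB groups and above all ES arrays. Sox21 fell by 0.47 on the log2 scale against DMSO (SE 0.06, adjusted p = 1.38e-04), yet was 0.66 ± 0.06 above ES cells (adjusted p = 1.61e-06).

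Sox11 is a SoxC factor that acts in young neurons. It read 7.996, 7.803 and 7.739 with ATRA, against 8.56, 8.55 and 8.39 with DMSO, 8.63, 8.34 and 8.94 in EBs, and 7.54, 7.73 and 7.60 in ES cells. The untreated EBs were the most scattered of any member's groups, with an SD of 0.30, but all lay above the ATRA arrays. Sox11 fell by 0.65 with ATRA against DMSO (SE 0.12, adjusted p = 0.00353) and by 0.79 against EBs (SE 0.12, adjusted p = 7.88e-04). With ATRA it stood 0.22 ± 0.12 from ES cells, which did not pass the test (adjusted p = 0.20), with a 95% interval from -0.05 to 0.49.

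Ncam1 encodes the neural cell adhesion molecule, which mesenchymal cells also carry. It was at 9.25, 9.35 and 9.39 with ATRA, against 9.67, 9.80 and 9.69 with DMSO, 9.78, 9.74 and 9.82 in EBs, and 9.76 in each of the 3 ES arrays. Only the ATRA arrays stood apart, below the 9 others. Ncam1 fell by 0.39 against DMSO (SE 0.05, adjusted p = 2.01e-04) and by 0.43 against ES cells (SE 0.05, adjusted p = 2.18e-05).

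**Figure D1:**
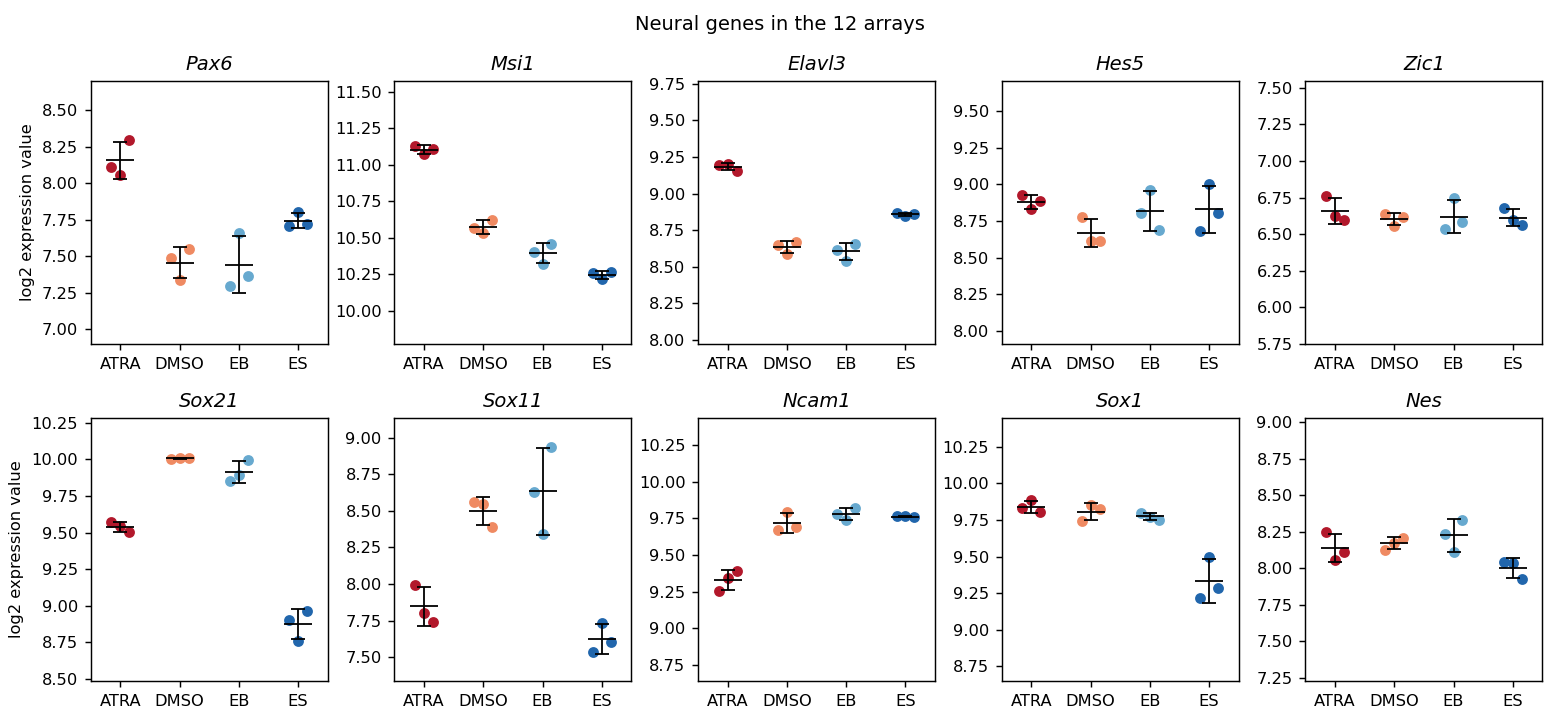
Log2 expression value of each of the 10 neural genes in every array. Points are single arrays of the ATRA, DMSO, EB and ES groups, the bar is the mean and the whiskers are 1 SD (n = 3); all panels span the same range of log2 units around each gene's own level. Pax6, Msi1 and Elavl3 are highest with ATRA, Ncam1 is lowest with ATRA, and the ATRA means of Sox21 and Sox11 lie between those of the other EB groups and of ES cells.

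Of the members not called, Sox1, a SoxB1 factor and among the earliest markers of neuroectoderm, was at 9.83, 9.88 and 9.81 with ATRA, against 9.74, 9.85 and 9.82 with DMSO. Its difference was 0.04, with a 95% interval from -0.11 to 0.18, and the groups overlapped. Nes, the gene of the progenitor intermediate filament nestin, read 8.24, 8.06 and 8.11 with ATRA and 8.13, 8.18 and 8.21 with DMSO, an interval from -0.18 to 0.11. Zic1, a zinc finger factor of the dorsal neural tube and cerebellum, lay between 6.53 and 6.76 in all 12 arrays, and its group means spanned 0.058, among the narrowest ranges on the array: 19280 of the 19938 genes had a wider one. Hes5, a Notch target that represses neuronal genes, was at 8.93, 8.83 and 8.88 with ATRA, against 8.78, 8.61 and 8.61 with DMSO. These Hes5 values did not overlap, but its difference of 0.21 ± 0.09 was not called (adjusted p = 0.146), though it was with array weights (adjusted p = 0.0396) and in a fit of these 6 arrays alone (adjusted p = 0.0364). Against EBs, at 8.81, 8.97 and 8.69, the ATRA arrays overlapped in Hes5, and that difference was 0.06.

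Beside these values, markers of other cell types also differed between ATRA and DMSO, and their part in the results was not tested. Of 7 neural crest markers, 4 fell and 1 rose, with Foxd3, which epiblast cells also use, at -1.59 ± 0.07 and Sox10 at 0.23 ± 0.07. The mean level of that list was 8.10 in each ATRA array, against 8.51 to 8.55 with DMSO. Of 12 fibroblast markers, 3 fell and 1 rose, at a mean of 7.77 to 7.83 against 7.86 to 7.90. Of 6 glial markers only Slc1a3 was called, lower, at -0.59 ± 0.05, with the list mean at 7.18 to 7.23 against 7.26 to 7.28. The other 5 lay between -0.031 (S100b) and 0.177 (Gfap). Of 10 endoderm markers 1 rose and 4 fell, at 10.30 to 10.43 against 10.45 to 10.63. Of 8 mesoderm markers only Pdgfrb was called, higher, at 8.30 to 8.35 against 8.08 to 8.12 for the list. Of 8 markers of pluripotent cells 3 fell, at 11.69 to 11.71 against 11.85 to 11.91. The array measures have no zero, so no marker could be called absent.

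ATRA-treated EBs were also set against untreated EBs, a comparison that shares the ATRA arrays, and 6 members were called there. Of all genes 18.4% were called, 7.79% higher and 10.6% lower. Against DMSO the differences were 0.70, 0.53 and 0.55 for Pax6, Msi1 and Elavl3 and -0.47, -0.65 and -0.39 for Sox21, Sox11 and Ncam1. Against untreated EBs they were 0.71, 0.71 and 0.58, and -0.38, -0.79 and -0.45, in the same order. Beside them, 3 endoderm markers (Gata6, Afp and Ttr) and 3 mesoderm markers (Pdgfrb, Mixl1 and Eomes) rose and none of either list fell against untreated EBs, whose list means were 10.13 to 10.32 and 8.03 to 8.16. In the same comparison 4 neural crest, 3 fibroblast, 3 pluripotent cell and 1 glial marker fell and 1 fibroblast marker rose, and their part in the neural values was not tested. DMSO-treated against untreated EBs gave the effect of the solvent and of any added time. In that comparison 0 of the 10 members were called in limma, and 0.747% of all genes were called. At an unadjusted p under 0.05 in limma there was 1 member, Msi1, and the share of all genes at that level was not counted. The largest differences were 0.18 ± 0.05 for Msi1 and -0.15 ± 0.09 for Hes5, and the median size over the members was 0.059, against 0.072 over all genes. Msi1 and Sox21 were the members whose DMSO arrays did not overlap those of untreated EBs, against 22.4% of all genes. Among the markers, Ttr (0.97 ± 0.12), Hnf4a and Gata6 of the 10 endoderm markers rose with DMSO against untreated EBs, as did the retinoic acid target Cyp26a1 (0.75 ± 0.09). The endoderm list averaged 10.45 to 10.63 with DMSO, against 10.13 to 10.32 in EBs, and its part in the neural values was not tested. The Msi1 step was called when only genes above the median of mean value were tested (adjusted p = 0.0246) and with an intensity trend and robust prior (adjusted p = 0.0322).

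**Figure D2:**
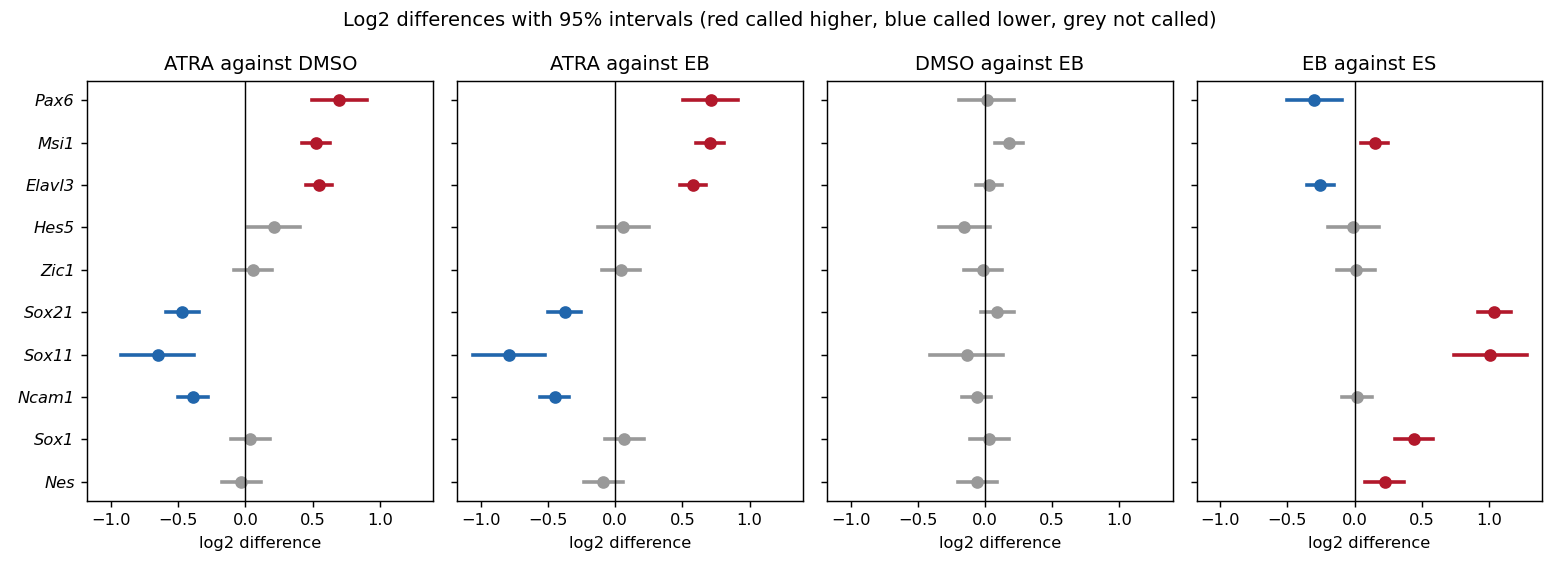
Log2 differences of the 10 neural genes in 4 comparisons, as points with 95% intervals. Red was called higher in the first group, blue lower, and grey was not called. ATRA against DMSO and against untreated EBs each have 3 red and 3 blue genes, DMSO against untreated EBs has none, and EBs against ES cells has 5 red and 2 blue.

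Untreated EBs were also set against undifferentiated ES cells, a step in which aggregation, culture time and loss of LIF change together. Of 12 fibroblast markers, 9 were lower in EBs than in ES cells, and a change in the share of such cells was not tested. Of the members 5 rose and 2 fell, with 34.7% of all genes called, 17.8% higher and 16.9% lower, and a median size of 0.238 for the members against 0.119 for all genes. The Sox genes led: Sox21 rose by 1.04 ± 0.06 (2.06-fold, adjusted p = 3.52e-08), Sox11 by 1.01 ± 0.12 (2.02-fold, adjusted p = 3.72e-05) and Sox1 by 0.44 ± 0.07 (1.36-fold, adjusted p = 2.01e-04). Sox1 was at 9.80, 9.77 and 9.75 in EBs, against 9.21, 9.50 and 9.28 in ES cells. ES replicate 2 was the highest ES array for Sox1 and still lay below every EB array. No pair among the ATRA, DMSO and EB groups was called for Sox1, and all 9 of their arrays lay above the 3 ES arrays.

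Nes rose by 0.22 ± 0.07 in EBs (adjusted p = 0.0199), with arrays at 8.24, 8.11 and 8.33 in EBs against 8.05, 8.04 and 7.93 in ES cells, and Msi1 by 0.15 ± 0.05 (adjusted p = 0.0282). Elavl3 fell by 0.25 (SE 0.04, adjusted p = 6.64e-04) and Pax6 by 0.30 (SE 0.09, adjusted p = 0.0253). Hes5, Zic1 and Ncam1 were not called, with differences of -0.01, 0.01 and 0.02. The calls of Pax6, Msi1 and Nes did not hold in every fit with 1 EB or ES array left out, though each difference kept its direction. Without ES replicate 3, EB replicate 1 or EB replicate 3, all 3 lost their call, at -0.31, -0.23 and -0.26 for Pax6, 0.16, 0.15 and 0.12 for Msi1 and 0.18, 0.22 and 0.17 for Nes; without ES replicate 2, Pax6 (-0.27) and Msi1 (0.13) lost theirs. The remaining 4 members kept their call in each of these. Beside these changes, 9 of 12 fibroblast markers fell and none rose, their mean level being 7.88 to 7.98 in EB arrays and 9.01 to 9.02 in ES arrays, with S100a4 at -2.30 ± 0.07. All 10 endoderm markers rose, Ttr by 3.19 ± 0.12, with the list mean at 10.13 to 10.32 in EB arrays against 9.001 to 9.086 in ES arrays. The part of these cell types in the neural values was not tested.

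Paralogues of the members, picked by family after the values had been seen, did not all move with the member. All came from the lists of other neural progenitor and neuronal genes described below, so a family can be incomplete. Of 17 measured, 1 rose and 4 fell with ATRA against DMSO, a comparison in which 13.3% of all genes were called. In the Elavl family, Elavl2 and Elavl4, which encode the neuronal proteins HuB and HuD, fell while Elavl3 rose. Elavl2 read 9.004, 8.906 and 8.883 with ATRA, against 9.24, 9.22 and 9.27 with DMSO, 9.36, 9.44 and 9.37 in EBs, and 8.55, 8.61 and 8.63 in ES cells, so that the ATRA arrays lay between ES cells and the other EB groups. Elavl2 fell by 0.31 (SE 0.05, adjusted p = 7.10e-04) and Elavl4 by 0.29 (SE 0.06, adjusted p = 0.00525) with ATRA, and in EBs against ES cells they rose by 0.79 ± 0.05 (adjusted p = 6.72e-08) and 0.42 ± 0.06 (adjusted p = 1.11e-04), where Elavl3 fell.

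**Figure D3:**
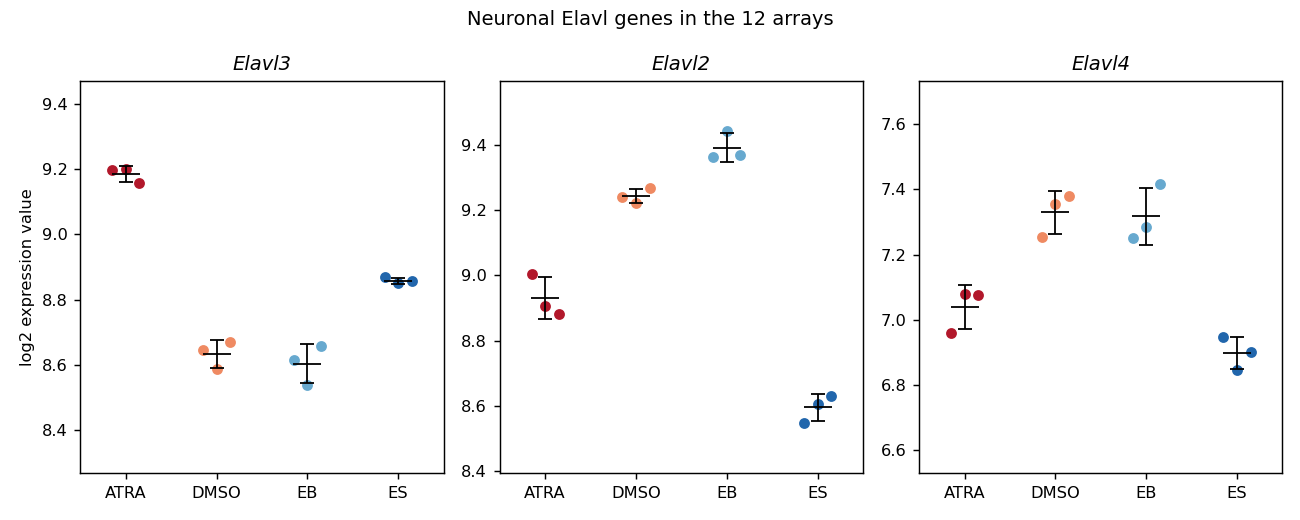
Log2 expression value of Elavl3, Elavl2 and Elavl4 in every array, with the mean and 1 SD (n = 3) for the ATRA, DMSO, EB and ES groups. Elavl3 is highest with ATRA, whereas Elavl2 and Elavl4 are highest in the DMSO and EB groups.

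In the Sox family, Sox12, a SoxC gene like Sox11, fell by 0.28 with ATRA (SE 0.07, adjusted p = 0.0115) and was 0.46 ± 0.07 higher in EBs than in ES cells. The third SoxC gene, Sox4, differed: it was not called with ATRA (0.09 ± 0.06) and was lower in EBs than in ES cells, at -0.54 ± 0.06 (adjusted p = 1.46e-05). Sox2, the SoxB1 factor shared by pluripotent and neural cells, fell by 0.20 with ATRA (SE 0.06, adjusted p = 0.0374), averaging 12.82 against 13.02 with DMSO. In EBs Sox2 was 0.32 ± 0.06 higher than in ES cells (adjusted p = 8.28e-04). Sox3 and Sox14 were not called in either comparison.

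Unlike Zic1, 2 Zic genes were called. Zic5 rose by 0.35 ± 0.08 with ATRA (adjusted p = 0.014) and was 0.55 ± 0.08 higher in EBs than in ES cells (adjusted p = 2.20e-04). Zic2, which the epiblast also expresses, was 1.12 ± 0.09 higher in EBs than in ES cells (adjusted p = 6.56e-07) and not called with ATRA (-0.05 ± 0.09). Zic4 was called in neither. Msi2, Pax7, Ncam2 and Hes3 were called in neither comparison. Pax3 and Hes1 were lower in EBs than in ES cells, by 0.44 and 0.21 on the log2 scale, and Hes6 was higher by 0.45; none of the 3 was called with ATRA.

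**Figure D4:**
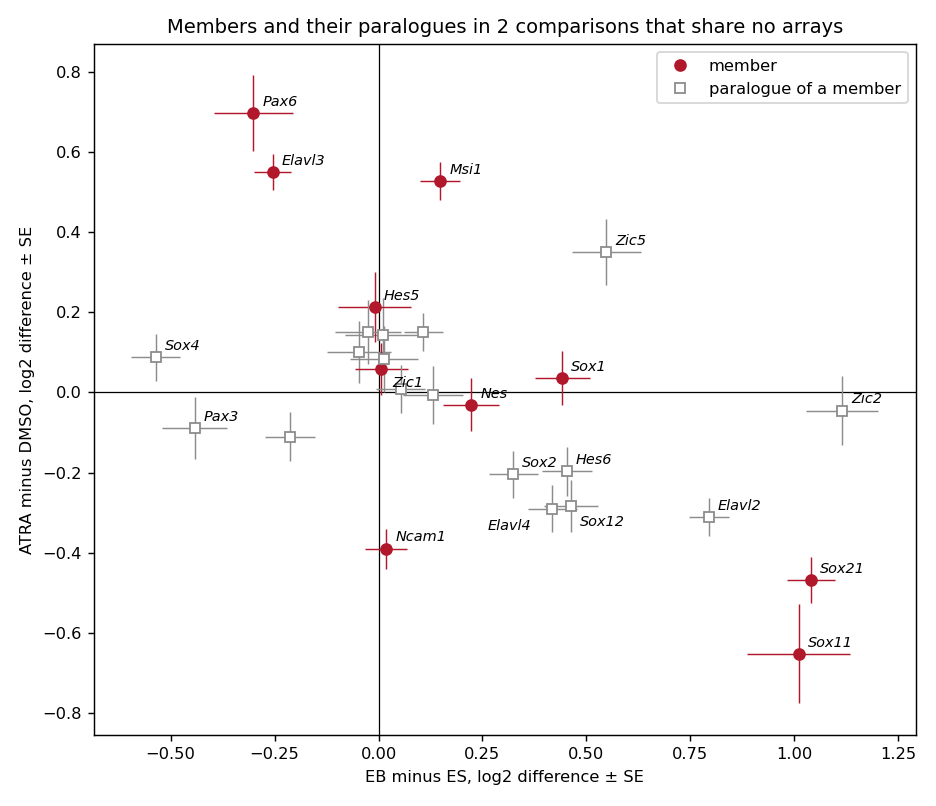
Log2 difference ± SE of the 10 members (filled circles) and their 17 measured paralogues (open squares), with EB minus ES on the horizontal axis and ATRA minus DMSO on the vertical axis. Sox21 and Sox11 lie at the lower right, with Elavl2 next to them, and Pax6 and Elavl3 at the upper left. These 2 comparisons share no arrays.

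Of 38 other neural progenitor genes measured, 2 rose and 8 fell with ATRA against DMSO, 26.3% in all against 13.3% of all genes. The list median was 0.03 against 0.01 over all genes. These genes and the neuronal genes below include the paralogues above. The calls of Sox2, Zic5, Elavl2, Elavl4 and Sox12 are therefore counted again, and Sox2 is also among the pluripotent cell markers. Gbx2, a factor of the anterior hindbrain and midbrain border, fell most, by 0.76 (SE 0.05, adjusted p = 7.17e-07). Its level averaged 11.26 in undifferentiated ES cells and 11.22 in EBs, and in which cells it fell with ATRA was not tested. The filament gene Vim and the progenitor and glial factor Sox9 stood at -0.30 ± 0.04 and -0.26 ± 0.05. Olig1, an oligodendrocyte factor, rose by 0.33 ± 0.06 (adjusted p = 0.00253) along with Zic5. Of 33 other neuronal genes, 1 rose and 7 fell, 24.2% in all against the same 13.3%, with a median of 0.03. The neurofilament gene Nefl (-0.62 ± 0.08) and Crmp1 (-0.60 ± 0.09), whose protein acts in axon guidance, fell most, with Neurog3, a proneural factor also of the endocrine pancreas, at -0.45 ± 0.07. The gene that rose was Isl1, a factor of motor neurons, by 0.28 ± 0.07 (adjusted p = 0.0167), which falls outside the rule for naming and was singled out after its value was seen.

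**Figure D5:**
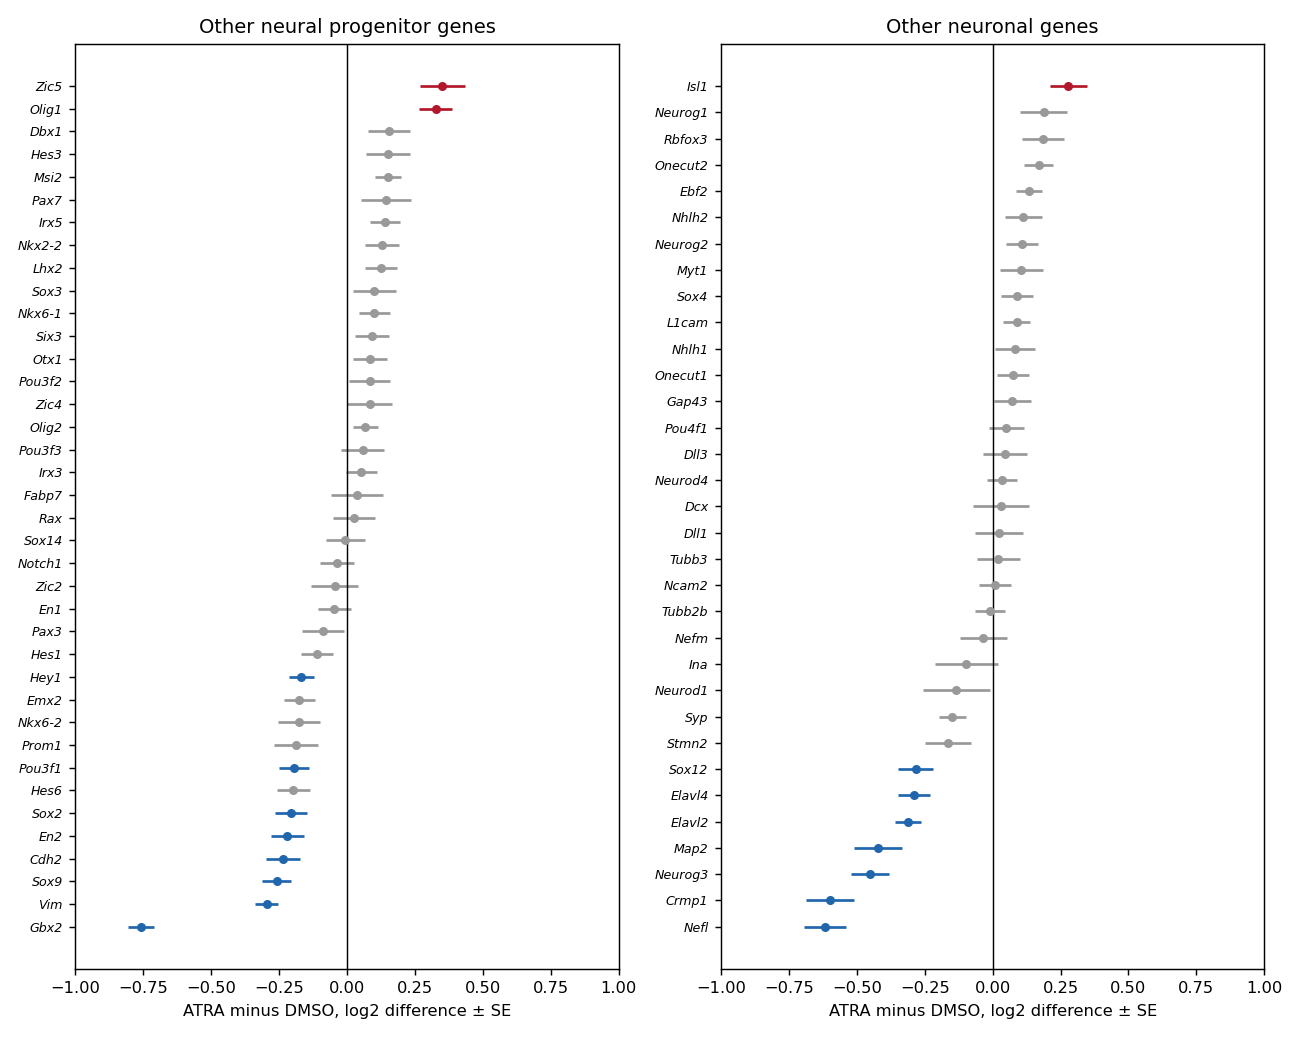
Log2 difference ± SE, ATRA minus DMSO, of 38 other neural progenitor genes (left) and 33 other neuronal genes (right). Red was called higher, blue lower, and grey was not called. Gbx2 lies lowest on the left and Nefl on the right.

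In EBs against ES cells, 9 of the other progenitor genes rose and 8 fell, 44.7% in all against 34.7% of all genes, with Zic2 higher and Sox9 (-1.30 ± 0.05), the N-cadherin gene Cdh2 (-1.41 ± 0.06), Vim (-0.40 ± 0.04) and Irx5 (-0.45 ± 0.06) lower. Mesenchymal cells also express Sox9, Cdh2 and Vim, and 9 of the 12 fibroblast markers fell in the same comparison; their part in it was not tested. Of the other neuronal genes 11 rose and 7 fell, 54.5% in all against the same 34.7%. Crmp1 (1.19 ± 0.09), Neurog3 (0.91 ± 0.07), Elavl2 and the synaptic vesicle gene Syp (0.53 ± 0.05) rose, and Stmn2, a microtubule regulator of growing axons, fell (-0.97 ± 0.09). DMSO against untreated EBs had 0 calls in limma among the 38 and 0 among the 33, where 0.747% of all genes were called. At an unadjusted p under 0.05 in limma there were 6 and 3, and the share of all genes at that level was not counted.

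The genes whose values followed each member most closely over the 12 arrays were ranked by Pearson's r among 2695 genes whose group means spanned at least 0.5. Left out beforehand were the members, predicted or clone-named genes, microRNAs, and olfactory and vomeronasal receptors. The 12 arrays form 4 groups of 3, so an r mostly reflects the 4 group levels and is given as a description. For Elavl3 they were Hoxb4 (r = 0.991), Pptc7 (0.99) and Dusp9 (0.988), and for Pax6 Tcp11 (0.955), Pacsin1 (0.951) and Hoxb1 (0.951). Hoxb4, a hindbrain and spinal cord patterning gene, averaged 8.64 with ATRA, 7.37 with DMSO, 7.28 in EBs and 7.89 in ES cells, the same order as Elavl3 among ATRA, ES, DMSO and EB. For Msi1 the closest genes were Bcar1 (0.99), Dmrt1 (0.989) and Slc26a2 (0.982). For Sox21 they were Sptb (0.995), Dgkk (0.994) and Phf21a (0.993), and for Sox11 Mb21d2 (0.968), the cadherin gene Cdh9 (0.96) and Fancd2os (0.959). For Ncam1 they were Ctbp2 (0.975), Gbx2 (0.974) and Zfp296 (0.974), and Gbx2 averaged 10.47 with ATRA against 11.23 with DMSO, 11.22 in EBs and 11.26 in ES cells. Sox1 was closest to Slc5a5 (0.977), Cbs (0.968) and Mfsd6 (0.966). Nes reached at most 0.864, with Rnf32, Hes5 at most 0.74, with Defb13, and Zic1 at most 0.509, with Tfap2c; their group means spanned 0.223, 0.213 and 0.058.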

How the data were processed

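The authors deposited 1 table of log2 values for 35556 probe sets on 12 Affymetrix arrays; the values span 2.30 to 14.7, from which the log2 scale was inferred. Per the labels' protocols, an RNeasy kit served for RNA extraction, and the RNA was turned into biotinylated cDNA with Ambion's WT Expression kit. How the authors corrected background, normalized and summarized is not stated in the labels. Array medians were nearly equal, so a change in total RNA per cell would not show. Depth has no counterpart on arrays. Their number, 3 a group, limits the precision. Each p-value sets a difference between groups against the spread between samples labelled as biological replicates, all of the same clone.

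Of the probe sets, 21789 had 1 symbol in the platform annotation, 1621 several and 12146 none listed; 21698 of the single-symbol ones were found in a RefSeq table of GRCm38.p6. Where a gene had several such probe sets, that of highest mean was kept, leaving 19938 genes. limma 3.58.1 in R 4.3.3 fitted a mean per group over all 12 arrays (lmFit, contrasts, eBayes; degrees of freedom 8 residual and 3.93 prior). Tests were two-sided, adjusted by Benjamini-Hochberg over all genes, at a threshold of 0.05; the code was tested on simulated data. Genes named were the members, for each its 3 closest genes by Pearson's r, and up to 5 called genes a list and comparison by smallest adjusted p; paralogues were added later. The members and lists were chosen with earlier results of these data known. Alternatives were quantile normalization, median centring, a filter on mean value, other uses of probe sets, array weights, a robust prior with an intensity trend, a replicate block, a fit of the 2 groups alone, an adjusted p of 0.01, each array of the compared groups left out, and ES replicate 2 with EB replicate 2 left out.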

Additional observations from a re-analysis of the deposited data

How the results depend on the processing

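With 6 members called for ATRA against DMSO and 6 for ATRA against EB, no alternative moved either count by more than 1.5 times. Leaving out single arrays of the compared groups gave 6 in each, and the filter on mean value gave 4, since 4 of the 10 members lie below the median and were not tested. For EB against ES, 7 members were called, and 4 with the filter, with only the 2 groups compared, or at an adjusted p of 0.01; with 1 EB or ES array left out there were 4 to 7. For DMSO against EB, 0 were called, 1 with the filter and 1 with the intensity trend, and 0 with any 1 DMSO or EB array left out. Over all genes, calls for ATRA against DMSO numbered 2655, 4311 with array weights and 1605 at an adjusted p of 0.01. For ATRA against EB they were 3673, and 2126 at 0.01. For DMSO against EB they were 149, 253 after quantile normalization, 761 with the filter, 626 with the intensity trend, 25 with only the 2 groups, 5 at 0.01, 27 without ES replicate 2 and EB replicate 2, and 0 to 128 with 1 DMSO or EB array left out, fewest without EB replicate 1 or DMSO replicate 1; the cause was not tested. Among 654 recomputed values of single members 607 kept direction and call, 17 lost a call, 4 gained one, and 26 changed sign, all of them in differences not called in either setting; the 17 are Pax6, Msi1 and Nes in EB against ES. For DMSO against EB, the Zic1 difference turned to 0.004 after quantile normalization, 0.003 with median centring, 0.005 with array weights and 0.047 without ES replicate 2 and EB replicate 2, which also turned Elavl3 to -0.002. For EB against ES, Zic1 turned to -0.004 after quantile normalization and -0.064 without those 2 arrays, and Hes5 to 0.020 with median centring and 0.005 without those arrays. With 1 array of the compared groups left out, the signs of these differences also changed: for ATRA against DMSO, Nes (-0.084 to 0.009); for ATRA against EB, Zic1 (-0.009 to 0.105) and Hes5 (-0.005 to 0.132); for DMSO against EB, Zic1 (-0.061 to 0.047), Pax6 (-0.058 to 0.124), Elavl3 (-0.002 to 0.057) and Sox11 (-0.283 to 0.015); for EB against ES, Zic1 (-0.057 to 0.051), Hes5 (-0.082 to 0.077) and Ncam1 (-0.003 to 0.039). The cause of these sign changes was not tested.

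Replicate numbers did not pair the samples across all groups: 2 of 18 same-numbered pairs had a correlation of deviations over 0.1 (range -0.126 to 0.506), and 3 of 12 arrays matched their own number best. Both pairs joined ES and EB arrays, replicate 1 at 0.303 and replicate 2 at 0.506, while ES replicate 1 reached 0.312 with EB replicate 3. Deviations from means of 3 arrays cannot settle whether ES and EB arrays shared a culture or batch, which was not tested. With the replicate block, 6, 6, 0 and 7 members were called for ATRA against DMSO, ATRA against EB, DMSO against EB and EB against ES, with 2553, 3514, 62 and 6848 genes in all.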
